A study of Mus musculus with 6 samples.

Results

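The genes described here were 35 imprinted genes of the mouse striatum, named by symbol and found among the 46078 genes of the deposited expression table by matching Ensembl identifiers to the GENCODE M21 annotation of GRCm38. Of these 35 genes, 34 had a read in at least 1 library and 33 reached a mean of 10 normalized reads, the minimum for testing. The striatal RNA came from 3 Shank3 TG mice, which carry an EGFP-Shank3 transgene in addition to their own Shank3 genes, and from 3 wild-type (WT) mice, with 1 library per mouse. All 6 mice were 12-week-old males on the C57BL/6J background. The promoter that drives the transgene is not given in the sources used here, and the labels number the mice 1 to 3 within each genotype. The study asked which pathways are altered in the striatum when Shank3, a scaffold protein of the excitatory postsynapse, is overexpressed.

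Imprinted genes are expressed from 1 parental allele because a methylation mark laid down in the egg or the sperm is kept after fertilization and read by the transcription machinery of the offspring. Most of them sit in clusters, in which a methylated control region sets the expression of several neighbours at once, often through a long non-coding RNA. Many are abundant in brain, where they act in growth, feeding, maternal behaviour and neuronal differentiation, and some switch allele between neurons and other cells. Of the 35 genes, 21 are counted as expressed from the paternal allele and 9 from the maternal allele. The other 5 are expressed from both alleles or from an allele that depends on the tissue. Igf2 is among the 21, although it is expressed from both alleles in the choroid plexus and the meninges of the brain. A read count adds both alleles, and inbred mice carry no variants to tell them apart, so the values below are total RNA levels and do not measure imprinting.

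The normalized read count used throughout is the number of reads of a gene divided by the size factor of its library. Between 27689589 and 36647626 reads per mouse fell on genes. Shank3 had 29891, 28309 and 26044 normalized read counts in the striatum of TG mice 1, 2 and 3, against 13807, 12918 and 13865 in that of WT mice 1, 2 and 3 (the replicate numbers of the labels), with a log2 fold change of 1.05 (limma adjusted P = 7.04e-05, standard error 0.06), as the genotype labels state. All 12 markers of the medium spiny neuron, the main striatal cell type, were detected in every mouse, with summed levels between 105847 and 147192. The choroid plexus markers summed to 29107 in TG replicate 1 and to between 8091 and 9544 in the other 5 mice, in which Enpp2 made up most of the sum. TG replicate 1 was the highest mouse in all 15 of these markers and TG replicate 2 the second highest in 11, among them Ttr (transthyretin), with 13701 in TG replicate 1, 1122 in TG replicate 2 and 120 to 432 in the other 4. Hypothalamic neuron markers were near the detection limit, with 8 of 13 below a mean of 10 and 6 of them (Avp, Hcrt, Sim1, Hmx2, Fezf1 and Rax) listed at 0 in some mouse, but their sum was 430.5 in TG replicate 2 and between 211 and 231 in the other 5 mice.

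Levels of the imprinted genes spanned about 4 powers of 10 when divided by the length of their exons. Meg3 (maternally expressed gene 3), a long non-coding RNA of the Dlk1-Dio3 domain, had the highest level of the 35, with 8538 ± 142 normalized read counts per kb of exon (SD over the 6 mice, here and for the other levels per kb). It was followed by Nap1l5, a nucleosome assembly protein family member, with 4019 ± 355, and by Snrpn, which encodes a brain-enriched spliceosome component, with 2869 ± 130.0. The membrane protein gene Nnat (neuronatin) had 1744 ± 227, and Impact, an inhibitor of the translation control kinase GCN2, had 1368 ± 88.9. The level of Impact differed from that of the non-coding RNA Rian (1297 ± 39.1) by less than the summed SDs, and so did the level of the zinc finger gene Peg3 (1175 ± 82.7) from that of Rasgrf1 (1053 ± 73.4), a calcium-responsive activator of Ras. Ndn (necdin) had 807 ± 60.0 and Blcap 762 ± 26.0 per kb. The next level was that of Zrsr1, a splicing factor gene, with 267 ± 7.33, and the lowest among the genes tested was that of Calcr, the calcitonin receptor, with 7.71 ± 5.02. At the bottom were 2 genes known for fetal and placental expression. The non-coding RNA H19 had between 1 and 3 reads per library, at or below the floor of 3 reads. Phlda2 had 0 reads in all 6 libraries, which allows up to 3 reads, or between 2.57 and 3.43 normalized read counts, per library.

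**Figure D1:**
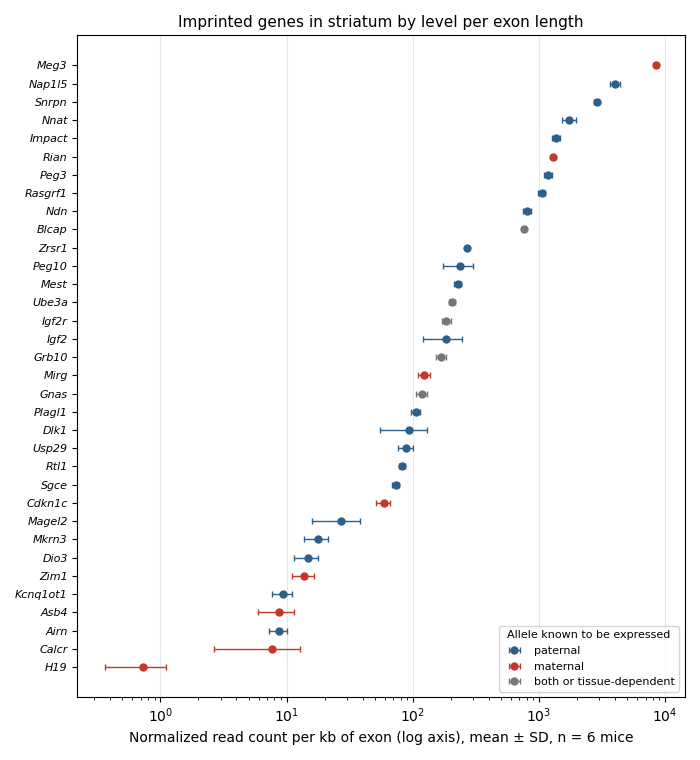
Mean normalized read count per kb of exon (horizontal log axis) of each imprinted gene with a read, over 6 mice, with bars for the SD and colours for the parental allele known to be expressed. Meg3 is at the top with 8538 per kb and H19 at the bottom with 0.733, and Phlda2, with 0 reads, is not drawn.

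Between TG and WT striatum, 0 of the 33 genes tested passed an adjusted P value of 0.05 by limma, edgeR or DESeq2, where limma called 0.00568% of the 17605 genes tested across the table, which is Shank3 alone. The adjusted limma P values of the 33 lay between 0.971 and 0.999. At an unadjusted limma P value under 0.05 there were 4 higher and 0 lower genes, against 1.98% higher and 2.33% lower (4.31% in all) over all genes tested. In the same 4 genes, Impact, Nap1l5, Rasgrf1 and Asb4, the values of the 3 TG mice lay above those of the 3 WT mice without overlap. This is 12.1% of the 33, against 5.06% higher and 5.05% lower with no overlap (10.1% in all) over all genes tested. Of the 33, 24 (72.7%) had a log2 fold change above 0, against 49.2% of all genes tested, and 3 (Calcr, Magel2 and Asb4) were more than 1.2-fold higher, against 3.89%. None was more than 1.2-fold lower, against 5.21%. Some marker lists of other cells also leaned to one side without a gene passing the adjustment by limma. The log2 fold change was below 0 in 11 of 12 medium spiny neuron markers (median -0.14) and 13 of 14 meningeal fibroblast markers (median -0.20), and above 0 in all 14 choroid plexus markers tested (median 1.32, 5 at an unadjusted P value under 0.05). It was above 0 in 5 of 8 cortical excitatory, 2 of 5 hypothalamic, 2 of 7 endothelial and 0 of 5 ependymal markers tested. The part of these cells in the values of the imprinted genes was not tested. The median log2 fold change of the 33 was 0.04, with quartiles at -0.01 and 0.16, and that of all genes tested was -0.00. The median was 0.07 over the 21 paternally expressed genes (Igf2 among them), 0.04 over the 7 maternally expressed genes tested and 0.04 over the other 5. For 15 of the 33 genes the 95% interval lay within 1.2-fold of no difference, and for the other 18 it reached further. In tissue RNA, fewer cells of a type and less RNA per cell cannot be told apart, and this holds for every difference below. The dissected mice were separate animals, but nothing in the sources used here gives their litters.

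**Figure D2:**
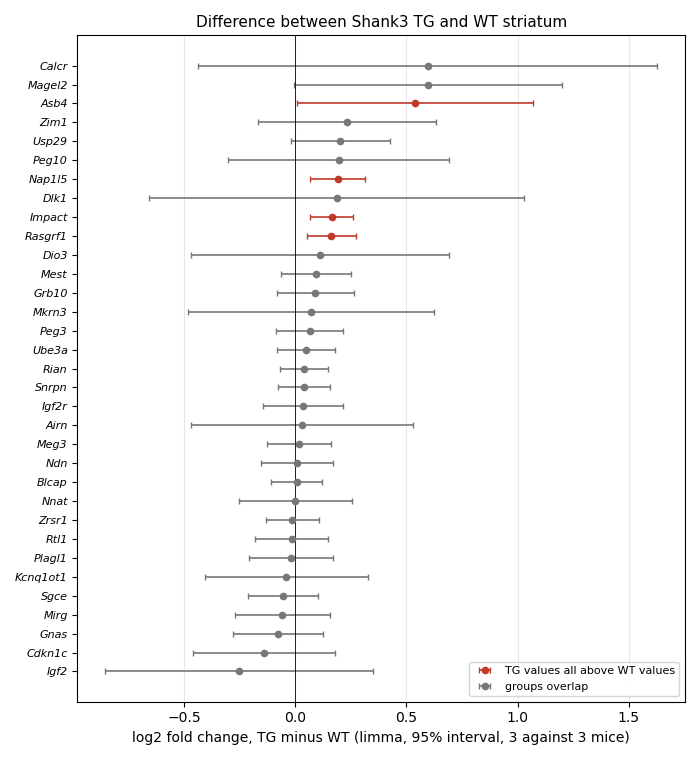
Log2 fold change of each of the 33 imprinted genes tested (horizontal axis, TG minus WT, limma) with its 95% interval, ordered by size, for 3 TG against 3 WT mice. The 4 red points, Asb4, Nap1l5, Impact and Rasgrf1, have intervals above 0, while Calcr and Magel2, at 0.60 each, have wider intervals that include 0.

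Impact (ENSMUSG00000024423, chr18:12955852-12992950, plus strand) is paternally expressed and binds the GCN2 activator GCN1, so that less GCN2 is active. It had 7259, 7606 and 7382 normalized reads in the striatum of TG mice 1, 2 and 3, against 6495, 6729.9 and 6636 in that of WT mice 1, 2 and 3. The lowest TG mouse was thus above the highest WT mouse, and mice of 1 genotype differed little (log2 SD 0.03). The mean was 12.0% higher in TG mice, a log2 fold change of 0.16 (95% interval 0.07 to 0.26, standard error 0.04, limma adjusted P = 0.971, exact permutation P = 0.1). With each mouse left out in turn or another test or scaling used, the log2 fold change was between 0.15 and 0.18.

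Nap1l5 (ENSMUSG00000055430, chr6:58905233-58907076, minus strand) is an intronless, paternally expressed gene that arose by retroposition into an intron of Herc3. TG replicates 1, 2 and 3 had 8310.2, 8143 and 7274 normalized read counts and WT replicates 1, 2 and 3 had 7043, 6919.8 and 6777. All TG mice were above all WT mice, with TG replicate 3 closest to the WT range. The mean was 14.4% higher in TG mice, with a log2 fold change of 0.19 (95% interval 0.07 to 0.32, standard error 0.06, limma adjusted P = 0.971, exact permutation P = 0.1). Its host gene Herc3, a ubiquitin ligase gene, had 4873, 4359 and 5078 in the TG striatum and 4348, 4559 and 4002 in the WT striatum, which overlapped (log2 fold change 0.15, 95% interval -0.00 to 0.30 by limma).

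Rasgrf1 (ENSMUSG00000032356, chr9:89909908-90026977, plus strand) encodes a neuronal exchange factor that couples calcium and glutamate receptor signals to Ras. It had 12454, 12372 and 12068 normalized read counts in the striatum of TG mice 1, 2 and 3, against 10344, 11192 and 11445 in that of WT mice 1, 2 and 3. The TG mice were close to each other and above every WT mouse, and WT replicate 1 was the lowest of the 6. The difference was 11.9% of the WT mean, a log2 fold change of 0.16 (95% interval 0.05 to 0.27, standard error 0.05, limma adjusted P = 0.971, exact permutation P = 0.1).

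Asb4 (ENSMUSG00000042607, chr6:5383386-5433022, plus strand), a maternally expressed gene for a substrate adaptor of a ubiquitin ligase, was much less abundant, with 54.1, 40.5 and 29.2 in the striatum of TG mice 1, 2 and 3, against 26.3, 29.0 and 26.5 in that of WT mice 1, 2 and 3. The WT mice were within 3 normalized read counts of each other, and TG replicate 3 lay just above the highest of them. The mean was 51.2% higher in TG mice, but the 95% interval of the log2 fold change of 0.54 ran from 0.01 to 1.07 (standard error 0.24, limma adjusted P = 0.971, exact permutation P = 0.1). Without TG replicate 1 the value was 0.33, and 3 of the 4 genes, all but Asb4, kept an unadjusted P value under 0.05 with each mouse left out in turn. For each of the 4 genes the exact permutation P value of 0.1 (two-sided) was the smallest that 3 mice against 3 allow, and edgeR and DESeq2 gave adjusted P values of 0.976 and 1.00.

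**Figure D3:**
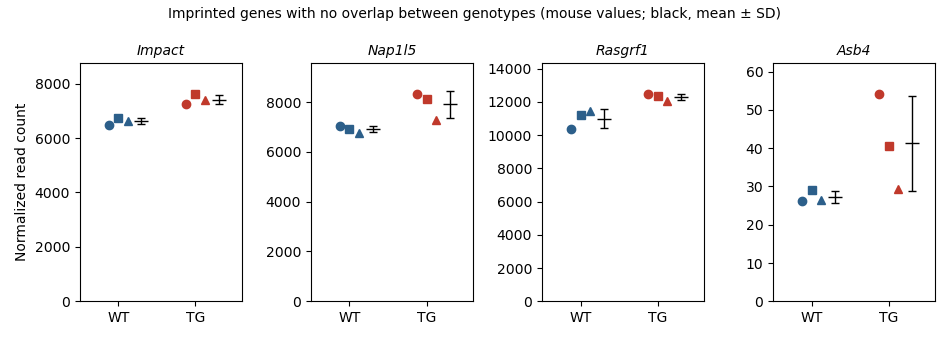
Normalized read counts (vertical axes from 0, 1 panel per gene) of Impact, Nap1l5, Rasgrf1 and Asb4 in each of 3 WT and 3 TG mice (circle, square and triangle for replicates 1, 2 and 3), with the mean and SD in black. The TG points lie above the WT points in every panel, by 12.0% of the WT mean for Impact, 14.4% for Nap1l5, 11.9% for Rasgrf1 and 51.2% for Asb4.

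The promoters of Nap1l5, Rasgrf1 and Asb4 are shown because these genes had no overlap between the genotypes, and that of Peg3 because it faces the promoter of Usp29 across a short gap. The sequences are RefSeq windows of GRCm38.p6 in the direction of the gene, from 250 bases before to 50 bases after its start, and capitals mark TGCCGC or its reverse complement GCGGCA, the motif that the imprint regulator ZFP57 binds when its CpG is methylated. The motif was searched on both strands, and no other motif was searched. Of all 32851 windows of this length 11.6% held the motif, and of the 44 windows of 29 imprinted genes 11 (25%) did. These were windows of 10 genes, Calcr, Grb10, Igf2, Meg3, Mest, Nap1l5, Nnat, Plagl1, Snrpn and Zim1. Some windows overlap, and the Mest windows starting at 30737800 and 30737803, which hold the same 2 matches, were counted separately. The median number of CpG sites was 13.5 in the imprinted windows and 7 in all windows. Cdkn1c, H19, Impact, Peg10, Rtl1 and Sgce had no entry.
Nap1l5, chr6:58907077-58907376, minus strand: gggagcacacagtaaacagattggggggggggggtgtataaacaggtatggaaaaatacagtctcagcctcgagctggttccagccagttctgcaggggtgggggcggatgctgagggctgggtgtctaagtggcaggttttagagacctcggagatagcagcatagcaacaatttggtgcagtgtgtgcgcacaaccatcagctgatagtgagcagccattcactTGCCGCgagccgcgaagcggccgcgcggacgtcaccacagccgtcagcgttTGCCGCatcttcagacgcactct
Rasgrf1, chr9:89909525-89909824, plus strand: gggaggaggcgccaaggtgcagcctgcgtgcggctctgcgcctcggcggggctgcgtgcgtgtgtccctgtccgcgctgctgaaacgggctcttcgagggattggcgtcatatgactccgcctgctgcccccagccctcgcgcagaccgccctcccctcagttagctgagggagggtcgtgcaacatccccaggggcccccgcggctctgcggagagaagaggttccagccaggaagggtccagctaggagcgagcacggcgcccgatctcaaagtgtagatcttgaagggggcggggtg
Asb4, chr6:5383136-5383435, plus strand: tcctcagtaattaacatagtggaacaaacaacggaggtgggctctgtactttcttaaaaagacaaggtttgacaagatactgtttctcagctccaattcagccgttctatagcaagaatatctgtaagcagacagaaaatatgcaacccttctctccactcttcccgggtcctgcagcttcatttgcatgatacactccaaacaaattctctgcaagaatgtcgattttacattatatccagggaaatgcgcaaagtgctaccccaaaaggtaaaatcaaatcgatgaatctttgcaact
Peg3, chr7:6730370-6730669, minus strand: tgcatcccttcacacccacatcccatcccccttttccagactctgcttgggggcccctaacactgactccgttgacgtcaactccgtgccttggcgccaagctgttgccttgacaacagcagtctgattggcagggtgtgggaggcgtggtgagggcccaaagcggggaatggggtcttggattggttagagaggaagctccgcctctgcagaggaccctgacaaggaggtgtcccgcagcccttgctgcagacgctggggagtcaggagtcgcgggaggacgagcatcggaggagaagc
The Nap1l5 window held 17 CpG sites and the motif at 2 places. The Rasgrf1 window held 26 CpG sites, the Asb4 window 6 and the Peg3 window 13, and these letters were not found in these 3. A match describes the sequence only, and binding was not measured here.

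The Peg3 domain on chromosome 7 holds Peg3 and Usp29, which are expressed from the paternal allele in opposite directions from starts 146 bases apart, and the maternally expressed zinc finger gene Zim1. The RefSeq windows of Peg3 and Usp29 share 263 bases. Peg3, a zinc finger protein with a role in maternal behaviour, had 14975, 17463 and 15629.5 normalized read counts in the striatum of TG mice 1, 2 and 3, against 14224, 15511 and 16166 in that of WT mice 1, 2 and 3. These overlapped, with a log2 fold change of 0.07 (95% interval -0.08 to 0.22 by limma). Usp29, a deubiquitinase gene, had 1859, 1771 and 1494 in the TG striatum and 1439, 1703 and 1316 in the WT striatum, in the order of the replicate numbers. Only WT replicate 2 reached into the TG range, and the log2 fold change was 0.20 (95% interval -0.02 to 0.43, standard error 0.10, limma adjusted P = 0.971, exact permutation P = 0.2). Of the Usp29 exon bases, 14.8% are shared with other genes, mainly Zim3 on the opposite strand, which has no row in the deposited table. Zim1 had 123, 144 and 95.4 in the TG striatum and 93.8, 124 and 88.4 in the WT striatum, with replicate 2 highest and replicate 3 lowest in both genotypes, and a log2 fold change of 0.23 (95% interval -0.17 to 0.63, standard error 0.18, limma adjusted P = 0.971, exact permutation P = 0.4). No correlation between Peg3 and Usp29 was detected across the 6 mice (Pearson r = 0.166, exact permutation P = 0.761, Spearman rho = -0.03, exact permutation P = 1, adjusted P = 0.870 and 1 over 8 pairs), and r was -0.96 without TG replicate 2 and WT replicate 1.

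The Prader-Willi/Angelman domain also lies on chromosome 7, and Magel2 had the highest log2 fold change of its 5 genes described here, with an interval that includes 0. Magel2 (ENSMUSG00000056972, chr7:62377010-62381640, plus strand), a MAGE family protein that acts in endosomal protein recycling, had 202, 173 and 85.7 normalized read counts in the striatum of TG mice 1, 2 and 3, against 90.4, 115 and 82.5 in that of WT mice 1, 2 and 3. TG replicates 1 and 2 were above all WT mice and TG replicate 3 was within their range. The log2 fold change was 0.60 (95% interval -0.01 to 1.2, standard error 0.27, limma adjusted P = 0.971, exact permutation P = 0.3). Unadjusted P values were 0.0524 by limma, 0.0325 by edgeR and 0.00824 by DESeq2. The P value also fell under 0.05 without a filter, with a replicate block, and without TG replicate 3 or WT replicate 2. It did not in the other settings, among them limma-voom, TMM scaling and library totals. Omitting TG replicate 1 lowered the log2 fold change to 0.36, and omitting TG replicate 3 raised it to 0.97. Its neighbour Ndn, another MAGE family gene expressed in postmitotic neurons, had 3297, 2979.7 and 2701 in the TG striatum and 2987, 3141 and 2776 in the WT striatum, with a log2 fold change of 0.01 (95% interval -0.15 to 0.17 by limma). The makorin gene Mkrn3 was sparse, between 29.5 and 52.4, and overlapped between the genotypes. Snrpn lay between 5871 and 6535 in all mice, with a log2 fold change of 0.04 (95% interval -0.08 to 0.16 by limma). Of its exon bases 34.1% are shared with Snurf and other genes, so part of its reads cannot be assigned to it alone. Ube3a, the ubiquitin ligase expressed from the maternal allele in neurons and lost in Angelman syndrome, had 4133, 4607 and 4175 in the TG striatum and 4136, 4399 and 3933 in the WT striatum (log2 fold change 0.05, 95% interval -0.08 to 0.18 by limma). In neurons its paternal copy is silenced by the antisense transcript Snhg14. Genes on the opposite strand share 27.3% of the exon bases of Ube3a, and of these genes only Snhg14 (8.74%) has a row in the deposited table. The strand setting is not given, and reads of the strands could not be told apart here. Across the 6 mice Ndn and Snrpn, controlled from the same region, had no detected correlation (Pearson r = 0.0236, exact permutation P = 0.965, rho = -0.03, exact permutation P = 1, adjusted P = 0.965 and 1).

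The Dlk1-Dio3 domain on chromosome 12 combines 3 maternally expressed non-coding RNAs that host microRNAs and small nucleolar RNAs with 3 paternally expressed coding genes. Meg3 varied least of the 33 genes tested, with 155011, 154464 and 156444 normalized read counts in the striatum of TG mice 1, 2 and 3, against 155500.0, 149389 and 155906 in that of WT mice 1, 2 and 3. The groups overlapped, and the 95% interval of the log2 fold change of 0.02 was -0.13 to 0.16 by limma. Rian was between 22395 and 24413 (log2 fold change 0.04) and Mirg had 801, 873 and 964 in the TG striatum and 902, 809.9 and 1039.7 in the WT striatum (log2 fold change -0.06, 95% interval -0.27 to 0.16, standard error 0.10, limma adjusted P = 0.983, exact permutation P = 0.6). The 3 RNAs, thought to be made as 1 long transcript unit, were not correlated past the threshold, with r = 0.773 for Meg3 and Rian, 0.626 for Meg3 and Mirg and 0.245 for Rian and Mirg (exact permutation, adjusted P = 0.353, 0.353 and 0.870). Spearman's rho was 0.143, 0.771 and 0.0857 (exact permutation, adjusted P = 1, 0.363 and 1). The first r was -0.71 without TG replicate 3 and WT replicate 2, so it rested on those mice. Dlk1, a Notch-like transmembrane protein, was the most variable of the coding genes, with 646, 785 and 269 in the TG striatum and 651, 523 and 271 in the WT striatum. Replicate 3 was lowest in both genotypes, at most 271 against at least 523 in the other 4 mice, and the log2 SD within genotypes was 0.74, so the log2 fold change of 0.19 had a 95% interval of -0.66 to 1.03 by limma. Rtl1, which derives from a retrotransposon, was between 496 and 563 (log2 fold change -0.02), and Dio3, the deiodinase that inactivates thyroid hormone, was between 19.6 and 36.9 (log2 fold change 0.11).

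Igf2 (ENSMUSG00000048583, chr7:142650766-142666816, minus strand), the insulin-like growth factor that is expressed from both alleles in the choroid plexus and the meninges of the brain, had the lowest log2 fold change of the 33 genes. It had 1502, 764 and 673 normalized reads in the striatum of TG mice 1, 2 and 3, against 840.1, 1491 and 1042 in that of WT mice 1, 2 and 3. TG replicate 1 and WT replicate 2 were high and alike, and the other 4 mice lay at or below 1042. The log2 fold change was -0.25 (95% interval -0.85 to 0.35, standard error 0.27, limma adjusted P = 0.971, exact permutation P = 0.6). Without TG replicate 1 it was -0.61 (limma adjusted P = 0.658, standard error 0.18), and without WT replicate 2 it was -0.03, so the value depended on these mice. The 14 meningeal fibroblast markers, all detected in every mouse, summed to 2690.0, 1590.4 and 1489.8 in TG replicates 1, 2 and 3 and to 1836, 2422 and 2174 in WT replicates 1, 2 and 3. The order of the 6 mice by Igf2 was the same as by this sum. Pearson's r of the log2 values was 0.976 (exact permutation P = 0.00417, adjusted P = 0.0333 over 8 pairs) and Spearman's rho was 1 (exact permutation P = 0.00278, the smallest that 6 mice allow, adjusted P = 0.0222). Without TG replicate 1 and WT replicate 2, the mice farthest from the median, r was 0.988, and on deviations from the genotype means it was 0.974. The summed choroid plexus markers gave r = 0.535 (exact permutation P = 0.356, adjusted P = 0.569) and rho = 0.257 (exact permutation P = 0.658, adjusted P = 1), and r was -0.41 without TG replicate 1. Outside TG replicate 1, Enpp2 made up most of this sum (7487 to 8272), so the sum measured mainly this gene there. The share of meningeal tissue in the dissected samples was not measured. Of the Igf2 exon bases 64.5% are shared with other genes of GENCODE M21, mostly the same-strand gene Gm49394. Gm49394 has no row in the deposited table, and Igf2os, which shares 1.71%, has one. H19, the maternally expressed neighbour of Igf2, could not be compared at 1 to 3 reads per library.

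**Figure D4:**
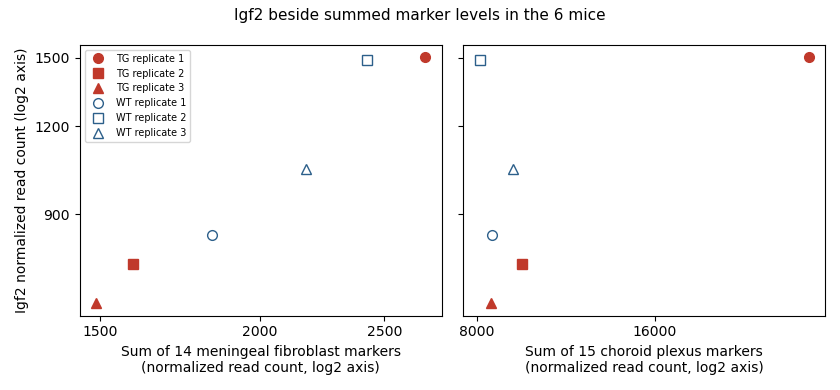
Igf2 normalized read count (vertical log2 axis) of each mouse against the summed level of 14 meningeal fibroblast markers (left) and of 15 choroid plexus markers (right, both horizontal axes log2), red for 3 TG and blue for 3 WT mice. The 6 mice line up on the left (r = 0.976), while on the right only TG replicate 1 stands apart, at 29107.

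In the Kcnq1 domain, Cdkn1c, a maternally expressed inhibitor of cyclin-dependent kinases, had 117, 117 and 107 normalized read counts in the striatum of TG mice 1, 2 and 3, against 146, 104 and 129 in that of WT mice 1, 2 and 3. The TG mice lay within the WT range, with a log2 fold change of -0.14 (95% interval -0.46 to 0.18, standard error 0.14, limma adjusted P = 0.971, exact permutation P = 0.5). WT replicate 2, lowest in Cdkn1c, was the second highest of the 6 in the meningeal sum, so the order of the mice by Cdkn1c was not that of the sum. On the opposite strand Gm44732, which has no row in the deposited table, shares 30.6% of the Cdkn1c exon bases. Kcnq1ot1, the paternally expressed antisense RNA that silences the domain, had 979, 963 and 629 in the TG striatum and 949, 959.5 and 707 in the WT striatum. Replicate 3 was again lowest in both genotypes, and the groups overlapped (log2 fold change -0.04, 95% interval -0.41 to 0.33 by limma).

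The Peg10 domain on chromosome 6 held 2 of the 3 genes with more than 1.2-fold higher levels in TG mice. Peg10, a retrotransposon-derived gene, and Sgce, which encodes the membrane protein epsilon-sarcoglycan that is mutated in myoclonus dystonia, are paternally expressed in opposite directions from starts 98 bases apart. Peg10 had 1986, 2006 and 1093 normalized read counts in the striatum of TG mice 1, 2 and 3, against 1745, 1533 and 1084 in that of WT mice 1, 2 and 3, with replicate 3 lowest in both genotypes and nearly equal between them. The log2 fold change was 0.20 (95% interval -0.30 to 0.69 by limma). Sgce was steadier, with 799, 795 and 692 in the TG striatum and 818, 775 and 774 in the WT striatum, and a log2 fold change of -0.05 (95% interval -0.21 to 0.10, standard error 0.07, limma adjusted P = 0.974, exact permutation P = 0.7). Across the 6 mice Peg10 and Sgce had r = 0.736 (exact permutation P = 0.0417, adjusted P = 0.167) and rho = 0.714 (exact permutation P = 0.136, adjusted P = 0.363), which did not pass the threshold over the 8 pairs. Without the 2 replicates numbered 3, r was 0.420. On deviations from the genotype means r was 0.914. No P value is given for it, because such deviations cannot be exchanged freely between the genotypes. Calcr (ENSMUSG00000023964, chr6:3685680-3764714, minus strand), the maternally expressed calcitonin receptor, had 26.6, 67.4 and 18.5 in the TG striatum and 33.2, 23.4 and 11.8 in the WT striatum. TG replicate 2 was far above the other 5 mice and the groups overlapped (log2 fold change 0.60, 95% interval -0.43 to 1.63, standard error 0.47, limma adjusted P = 0.971, exact permutation P = 0.5). In the same mouse 8 of the 13 hypothalamic neuron markers were highest (Avp, Gabrq, Gal, Hmx2, Otp, Oxt, Sim1 and Trh), with 45.0 normalized read counts of Oxt (oxytocin) against 0.974 to 5.89 in the other 5, and 142 of the GABA receptor subunit gene Gabrq against 43.2 to 78.9. Of these 8, Hmx2 and Sim1 were at 1.12 each in TG replicate 2, below the floor of 3 reads. Otp was at 7.87 there against up to 6.55 in other mice. The other 5 of the 13 markers (Agrp, Fezf1, Hcrt, Pomc and Rax) were highest in other mice. Without TG replicate 2 the log2 fold change of Calcr was 0.08. The part of these markers in the levels of Calcr, Magel2 and Asb4, genes that the hypothalamus also expresses, was not tested.

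The remaining imprinted genes each stand in a domain of their own or in a pair, and all of them overlapped between the genotypes. Mest, a hydrolase-fold protein gene, had 939, 983 and 845 normalized read counts in the striatum of TG mice 1, 2 and 3, against 857, 912 and 819.8 in that of WT mice 1, 2 and 3 (log2 fold change 0.09, 95% interval -0.06 to 0.25 by limma), and 23.1% of its exon bases are shared with Copg2 on the opposite strand. Grb10, an adaptor that dampens insulin receptor signalling and is expressed from the paternal allele in neurons, had 1514, 1788 and 1417 in the TG striatum and 1474, 1421 and 1516 in the WT striatum, with TG replicate 2 alone above the rest (log2 fold change 0.09, 95% interval -0.08 to 0.27 by limma). Gnas, the stimulatory G protein alpha subunit, had 1399, 1322 and 1141 in the TG striatum and 1315, 1523 and 1234 in the WT striatum (log2 fold change -0.08, 95% interval -0.28 to 0.13, standard error 0.09, limma adjusted P = 0.971, exact permutation P = 0.6). The antisense genes Nespas and Gm20721 share 22.0% of the Gnas exon bases. For Nnat the values were 3689.6, 3289.9 and 2618 in the TG striatum and 3096, 3585 and 2859.8 in the WT striatum, with replicate 3 lowest in both genotypes and a log2 fold change of 0.00 (95% interval -0.25 to 0.26 by limma). Blcap, in whose intron Nnat lies, was between 2212 and 2419 (log2 fold change 0.01). The zinc finger gene Plagl1 was between 751 and 953 (log2 fold change -0.02), the splicing factor gene Zrsr1 between 1162 and 1252 (log2 fold change -0.01), and the mannose 6-phosphate receptor gene Igf2r, which clears IGF2 from the cell surface, between 1522 and 1855 (log2 fold change 0.04). Airn, the antisense RNA that silences paternal Igf2r outside neurons, was sparse, between 24.3 and 38.6 (log2 fold change 0.03). Over the 33 genes the log2 SD within genotypes had a median of 0.13, against 0.11 over all genes tested, and exceeded 0.2 in 12 genes (36.4%), against 25.5%.

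**Figure D5:**
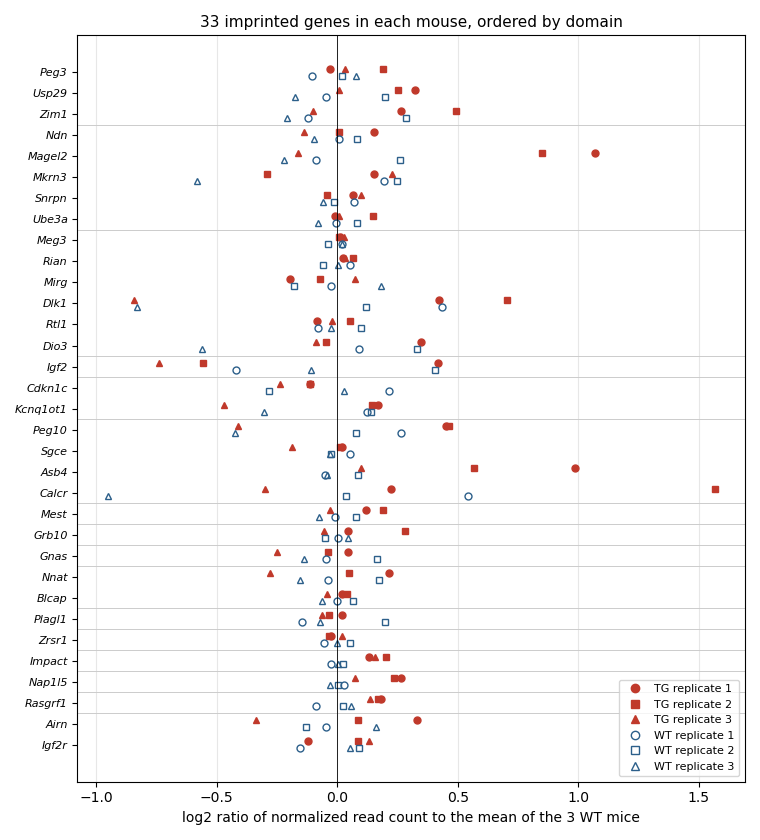
Log2 ratio of the normalized read count of each mouse to the mean of the 3 WT mice (horizontal axis) for the 33 imprinted genes tested, ordered by domain, with filled red symbols for TG and open blue symbols for WT mice and 1 shape per replicate number. Meg3 spreads least by this ratio, Calcr reaches above 1.5 in TG replicate 2, and both triangles (replicate 3) lie far to the left in Dlk1 and Peg10.

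A second list of 51 genes, less often studied or imprinted in few tissues, was read in the same fit, of which 49 were in the table and 42 were tested. None passed an adjusted P value of 0.05 by limma, 1 was higher and 1 lower at an unadjusted P value under 0.05, and 3 higher and 1 lower (9.52% of the 42) had no overlap, against 4.31% at that threshold and 10.1% with no overlap over all genes tested. The median log2 fold change was 0.00. Zdbf2, a paternally expressed gene with a role in postnatal feeding, had 1926, 2156 and 1781 normalized read counts in the striatum of TG mice 1, 2 and 3, against 1597, 1761 and 1778 in that of WT mice 1, 2 and 3. Its TG values were all above its WT values, by a few reads at the nearest (log2 fold change 0.19, standard error 0.07, limma adjusted P = 0.971, exact permutation P = 0.1). Next by P value among the higher genes were Herc3, described above, and the non-coding RNA Peg13 (log2 fold change 0.10, 95% interval -0.02 to 0.21 by limma). Among the lower genes these were Chrac1 (log2 fold change -0.23, 95% interval -0.46 to -0.00), a chromatin accessibility complex subunit, Tssc4 (-0.12, 95% interval -0.26 to 0.01) and the AMP deaminase gene Ampd3 (-0.09, 95% interval -0.23 to 0.05, all from limma).

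Genes that set or keep imprints were all tested, 22 of 22, and 0 passed an adjusted P value of 0.05 by limma. At an unadjusted P value under 0.05 there were 0 higher genes and 1 lower gene, Ehmt2, the histone H3 lysine methyltransferase G9a. It had 6831, 6596 and 6552 normalized read counts in the striatum of TG mice 1, 2 and 3, against 7299.6, 6958 and 7168 in that of WT mice 1, 2 and 3, with no overlap and a log2 fold change of -0.10 (standard error 0.04, limma adjusted P = 0.971, exact permutation P = 0.1). Uhrf1, which guides DNA methylation to newly copied DNA, also had no overlap, with 99.5, 98.9 and 87.6 in the TG striatum and 101, 143 and 112 in the WT striatum (log2 fold change -0.30, 95% interval -0.63 to 0.04 by limma). The histone chaperone gene Daxx followed (-0.12, 95% interval -0.29 to 0.06 by limma). Among the genes with a log2 fold change above 0 were the Polycomb subunit gene Suz12 (0.10, 95% interval -0.03 to 0.23) and the chromatin remodeler gene Atrx (0.04, 95% interval -0.09 to 0.17, both from limma), and their groups overlapped. The median log2 fold change of the 22 was -0.03, and 2 (9.09%) had no overlap, against 10.1% of all genes tested.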

How the data were processed

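The authors isolated striatal RNA from 3 WT and 3 Shank3 TG mice (1 TruSeq library per mouse, paired-end reads). Per the submitters' processing notes and the study's methods, the authors trimmed reads with Trimmomatic 0.35, used TopHat2 2.1.0 to align them to GRCm38, HTSeq to obtain gene counts and DESeq2 to scale these by size factors. The strand setting and the annotation release of the counting are not given in the sources used here. The deposited signal is this normalized read count, and all values of each library were whole multiples of its smallest value (100% within 0.01), which gave back the read counts (27689589 to 36647626 per library). The deposited table holds no columns of comparisons.

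Of 46078 rows, 45229 matched GENCODE M21 by Ensembl identifier. Genes with a mean of at least 10 (17605) were tested in R 4.3.3 with limma 3.58.1 (trend option) on log2 values after adding a pseudocount of 1, with Benjamini-Hochberg adjustment at 0.05. Fold changes on this scale understate the change of low genes. On data simulated for TG against WT (17605 genes, 200 changed), 129 genes passed in limma, of which 6 had not been changed. On the log2 scale 16% of changes of 0.25, 56% of 0.5, 78% of 1 and 96% of 2 were recovered. The adjustment is stricter where fewer genes pass, and in the real data 1 gene passed, so these shares may overstate recovery there. Single genes were also tested by a two-sided exact permutation test, and 8 pairs of measures were correlated across mice with exact permutation P values. Levels per kb used all annotated exon bases of a gene. The 95% intervals are those of limma, and floors of 3 reads cover counting error only. Alternatives were edgeR 4.0.16, DESeq2 1.42.0 and limma-voom on the recovered reads, scaling by TMM or by library totals, a minimum mean of 50 or none, a pseudocount of 0.5 or 5, leaving out each library and a block for the replicate number.

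The imprinted genes, the other lists and the tests were chosen with earlier results of these data known. Full statistics are given for genes with no overlap, with an unadjusted P value under 0.05 or among the 5 largest differences in each direction. From the list of other imprinted genes and that of imprint regulators, up to 3 genes per direction with the smallest P values are named, except 1 gene that is not reported here, and genes outside this rule were named after their values were seen. Promoter sequences are RefSeq windows of GRCm38.p6.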

Additional observations from a re-analysis of the deposited data

How the results depend on the processing

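No imprinted gene passed an adjusted P value of 0.05 by limma or under any of the 16 alternatives (edgeR, DESeq2 and limma-voom included). At an unadjusted P value under 0.05 there were 4 by limma and 3 to 8 under the alternatives. Over all genes, the number called was 7 by DESeq2 and 5 without a filter (1 in the main test), and 1 to 2 with each library left out. At an unadjusted P value under 0.05 there were 431 genes by DESeq2, 1234 without a filter and 502 to 1327 with each library left out (502 without TG replicate 3, 1327 without TG replicate 1), against 758. Higher imprinted genes numbered 3 to 8 at that threshold (8 without TG replicate 3) and 4 to 9 by no overlap (9 without TG replicate 3, 7 without WT replicate 2), and lower ones 0 to 1 by either measure (Igf2 without TG replicate 1, and by no overlap Cdkn1c without WT replicate 2). Groups with fewer mice are more often free of overlap, and the share of all genes without overlap in these settings is not given here. The median log2 fold change of the imprinted genes lay between 0.01 and 0.08. Mice with the same number correlated by 0.0474, 0.0163 and 0.0928 in their deviations from the genotype means, and mice with different numbers by -0.1246 to 0.0771. Whether the number pairs the mice was not tested. With the replicate block 7 imprinted genes were higher at an unadjusted P value under 0.05 (Asb4, Impact, Magel2, Nap1l5, Peg10, Rasgrf1 and Usp29), and 0 passed the adjustment. The share of all genes at that threshold with the block is not given here.

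The sign of the log2 fold change turned in 35 of 198 fits with a library left out and in 1 of 325 others, Nnat by limma-voom (-0.0009). The lowest and highest values with a library left out were -0.12 and 0.21 for Airn, -0.0251 and 0.0393 for Blcap, -0.14 and 0.29 for Dio3, -0.18 and 0.65 for Dlk1, -0.14 and 0.0101 for Gnas, -0.0048 and 0.16 for Grb10, -0.0381 and 0.11 for Igf2r, -0.18 and 0.17 for Kcnq1ot1, -0.0037 and 0.0271 for Meg3, -0.14 and 0.0368 for Mirg, -0.19 and 0.23 for Mkrn3, -0.0633 and 0.0804 for Ndn, -0.11 and 0.14 for Nnat, -0.0026 and 0.48 for Peg10, -0.0874 and 0.0845 for Plagl1, -0.0545 and 0.0341 for Rtl1, -0.0887 and 0.0144 for Sgce, and -0.0391 and 0.015 for Zrsr1. The r of Ndn and Snrpn was -0.0025 with TMM scaling, and on deviations from the genotype means r was -0.0505 for Peg3 and Usp29 and 0.914 for Peg10 and Sgce. With each library left out, r was between -0.41 and 0.88 for Igf2 and the choroid plexus sum, 0.964 and 0.99 for Igf2 and the meningeal sum (exact permutation, adjusted P = 0.0667 to 0.2 with 5 mice), 0.567 and 0.816 for Meg3 and Mirg, -0.54 and 0.897 for Meg3 and Rian, -0.32 and 0.632 for Ndn and Snrpn, 0.659 and 0.913 for Peg10 and Sgce, -0.26 and 0.459 for Peg3 and Usp29, and -0.41 and 0.543 for Rian and Mirg. The cause of these shifts was not tested. With 5 mice and 8 pairs, 0.0667 is the smallest adjusted P value that 1 pair alone can reach by exact permutation, which is above 0.05. H19 and Phlda2, at or below 3 reads, could not be compared at this depth.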

Other observations

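A pattern between mice was seen after the values were known. In 15 of the 33 imprinted genes tested (45.5%), replicate 3 was the lowest of its genotype in both TG and WT mice, which was so for 11.5% of all genes tested. These genes were Blcap, Calcr, Dio3, Dlk1, Gnas, Kcnq1ot1, Magel2, Mest, Nap1l5, Ndn, Nnat, Peg10, Sgce, Usp29 and Zim1, from the Peg3, Prader-Willi/Angelman, Dlk1-Dio3, Kcnq1, Peg10 and other domains. Replicate 1 was lowest in both genotypes in 4 imprinted genes (12.1%) and replicate 2 in 1 (3.03%), against 15.7% and 11.6% of all genes tested. Dlk1 had 269 and 271 normalized read counts in the 2 mice against 523 to 785 in the other 4, and Peg10 had 1093 and 1084 against 1533 to 2006. The long non-coding RNA Snhg14 of the Prader-Willi/Angelman domain, from the list of other imprinted genes, had 5677 in TG replicate 3 and 5747 in WT replicate 3 against 7196 to 7627 in the other 4 mice. Snhg14 was picked after its values were seen, and most genes of that list did not have replicate 3 lowest in both genotypes. Peg13 of that list had its highest value of each genotype in replicate 3 (10980 in TG and 10068 in WT). The labels give the number as a name only, and nothing in the sources used here says that mice with the same number share a litter, a day or a dissection.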
